A study of Mus musculus with 18 samples.

Results

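The killer lectin-like receptors are C-type lectin-like membrane proteins through which natural killer (NK) cells and some T cells read the surface of other cells. The 9 genes described here are Klrd1, Klrk1, Klrc1, Klrc2, Klrb1c, Klrb1f, Klra7, Klra9 and Klrg1. They were chosen by symbol, with earlier results of these data known, from a panel of 23930 mouse genes that holds 19 other Klr genes. All 9 passed the filter on low counts that left 11316 genes for testing. They were read in CD8 and CD4 T cells purified by fluorescence-activated sorting from the bone marrow of 3 kinds of mice. In pMT-10 mice a metallothionein promoter drives a transgene for the cytokine IL-10, and zinc turns that promoter on. The groups were pMT-10 mice that drank zinc water for 30 days, pMT-10 mice on control water, and C57BL/6 mice that drank the same zinc water. There were 3 mice of each kind, with 3 CD8 and 3 CD4 libraries from each, which makes 18 libraries in 6 groups of 3. The sources used here give neither the ages of the mice nor the cells in which the transgene is active.

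Klrd1 encodes CD94, which pairs with NKG2A (Klrc1) to form an inhibitory receptor or with NKG2C (Klrc2) to form an activating one, and both pairs bind the non-classical class I molecule Qa-1. Klrk1 encodes NKG2D, an activating receptor for stress-induced ligands of the RAE-1, MULT1 and H60 families. Klrb1c encodes NK1.1, the antigen that marks NK cells and NKT cells in C57BL/6 mice, and Klrb1f encodes NKR-P1F, which binds the lectin Clr-g (Clec2i). Klra7 and Klra9 encode the inhibitory Ly49G and Ly49I, which bind classical class I molecules. Klrg1 encodes an inhibitory receptor for cadherins that is carried by terminal effector CD8 cells and by a subset of regulatory T cells. In T cells these receptors are known from memory and innate-like cells, where they set the threshold for activation through the T cell receptor.

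All 9 genes lie on mouse chromosome 6 (GENCODE M21, GRCm38). Klrg1 (chr6:122270596-122282882, minus strand) stands apart, 6495.6 kb before the next member. The others fall within 1454.8 kb of the NK gene complex, in the order Klrb1c (chr6:128778485-128789215, minus), Klrb1f (chr6:129045901-129057464, plus), Klrd1 (chr6:129591782-129598775, plus), Klrk1 (chr6:129610323-129623864, minus), Klrc2 (chr6:129647496-129660689, minus), Klrc1 (chr6:129666015-129678973, minus), Klra9 (chr6:130178675-130193112, minus) and Klra7 (chr6:130218605-130233322, minus). Several have close relatives in the same complex. The coding sequence of Klra9 was 96.9% identical to that of Klra10 over the aligned bases, Klrc2 was 95.8% identical to Klrc3, and Klrb1c was 92.8% identical to Klrb1a. Klrc1 was 87.2% identical to Klrc2. The amplicon positions were not used here, so the split of reads between such pairs is uncertain.

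Promoters are shown for 4 members because Klrb1f went the opposite way to its neighbours in CD4 cells, as described below. RefSeq windows on GRCm38.p6, from 250 bases before to 50 bases after a transcript start, were at hand for 7 of the 9 members (all but Klrd1 and Klrg1). Capitals mark TGTGGT, the core bound by RUNX factors, or GGTGTG, a T-box core, on either strand (ACCACA is TGTGGT read on the other strand). The 2 motifs do not overlap in these windows, and they were chosen after the sequences were seen. All windows are printed 5′ to 3′ on the strand of the gene.
Klrk1, chr6:129623815-129624114, minus strand: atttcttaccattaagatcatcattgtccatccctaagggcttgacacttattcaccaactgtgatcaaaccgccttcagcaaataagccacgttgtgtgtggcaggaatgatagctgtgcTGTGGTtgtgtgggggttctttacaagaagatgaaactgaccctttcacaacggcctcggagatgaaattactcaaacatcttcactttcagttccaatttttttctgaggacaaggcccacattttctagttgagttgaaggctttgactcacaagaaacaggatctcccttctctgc
Klrc2, chr6:129660547-129660846, minus strand: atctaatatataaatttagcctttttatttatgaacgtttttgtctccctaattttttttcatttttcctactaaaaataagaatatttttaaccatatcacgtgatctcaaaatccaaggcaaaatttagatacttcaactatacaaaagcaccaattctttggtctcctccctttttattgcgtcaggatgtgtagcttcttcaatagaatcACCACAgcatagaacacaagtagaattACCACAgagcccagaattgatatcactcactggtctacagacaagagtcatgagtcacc
Klrb1c, chr6:128788592-128788891, minus strand: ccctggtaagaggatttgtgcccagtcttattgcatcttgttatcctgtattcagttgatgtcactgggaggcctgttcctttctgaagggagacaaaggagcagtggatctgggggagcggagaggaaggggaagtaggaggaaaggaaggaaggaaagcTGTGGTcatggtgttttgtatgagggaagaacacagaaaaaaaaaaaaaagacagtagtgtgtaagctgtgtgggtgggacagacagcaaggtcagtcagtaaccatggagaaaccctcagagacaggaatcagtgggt
Klrb1f, chr6:129045651-129045950, plus strand: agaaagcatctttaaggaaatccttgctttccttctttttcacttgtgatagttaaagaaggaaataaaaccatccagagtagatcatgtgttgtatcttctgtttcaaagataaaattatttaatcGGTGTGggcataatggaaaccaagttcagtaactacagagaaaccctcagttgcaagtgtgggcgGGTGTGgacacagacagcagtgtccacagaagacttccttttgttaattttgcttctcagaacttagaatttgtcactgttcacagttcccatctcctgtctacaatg
TGTGGT was found once in the Klrk1, Klrb1c and Klrc1 windows and 2 times in that of Klrc2, and GGTGTG was found 2 times in that of Klrb1f. Neither was found in the windows of Klra7 and Klra9, which also fell in CD4 cells. Of 32851 RefSeq promoters of this length 16.8% held TGTGGT and 19.0% held GGTGTG, so either motif is common, and a match is not evidence of binding.

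Levels are given in CPM, read counts scaled to a common library size. Total counts ran from 10546798 to 18519474 per library, so that a count of 0 allows up to 0.159 to 0.293 CPM (3 counts, counting error only). The sorted cells matched their labels. Cd8a stood at 1817 to 2572 CPM in the CD8 libraries and at 0.213 to 10.03 CPM in the CD4 libraries. Cd4 stood at 0 to 5.56 CPM in the CD8 libraries and at 1654 to 3405 CPM in the CD4 libraries. Il10 was higher in zinc-treated pMT-10 cells than in either control in both cell types (adjusted p = 1.74e-05 to 0.0319), and whether its amplicon reads the transgene is not given. Libraries of pMT-10 mice held Xist reads and those of C57BL/6 mice Y-linked reads, so sex differed with strain. One C57BL/6 library, CD4 replicate 3, also held Xist at 40.1 CPM, against 0.456 and 7.49 CPM in the other 2 C57BL/6 CD4 libraries. It also held the highest Klra7, Zbtb16 and Il17rb of the 3, and whether it contains RNA from another library was not tested. All zinc-treated libraries were run on 1 chip and the 6 from control water on another, and zinc and chip therefore cannot be told apart. In bulk libraries fewer cells of a type and less RNA per cell cannot be told apart either.

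Zinc-treated pMT-10 mice had lower levels of most of these receptor genes in their CD4 cells, while Klrb1f was higher in both cell types and Klrg1 was higher in CD8 cells. Against zinc-treated C57BL/6 mice, 2 members were called higher and 1 lower in CD8 cells (adjusted p under 0.05 in edgeR's quasi-likelihood test), where 5.68% of all tested genes were called higher and 3.13% lower. In CD4 cells 1 was called higher and 7 lower, where 9.29% of genes were called higher and 9.4% lower. The median log2 difference of the members was -0.53 in CD8 cells, beside 0.00 over all tested genes, and -2.20 in CD4 cells, beside -0.05 over all tested genes. Against pMT-10 mice on control water, 2 members were called higher and 0 lower in CD8 cells (4 of the 9 had an unadjusted p under 0.05, and 1 was called lower by DESeq2), where 5.1% of genes were called higher and 2.64% lower. In CD4 cells 1 was called higher and 7 lower, where 9.38% were called higher and 9.4% lower, and the members' median log2 difference was -3.67 beside -0.05 over all genes. For the same 7 members all CD4 libraries of zinc-treated pMT-10 mice lay below all C57BL/6 libraries, as 18.8% of all tested genes did, and below all libraries of pMT-10 mice on control water, as 22.3% did. The 2 comparisons share the zinc-treated pMT-10 libraries.

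**Figure D1:**
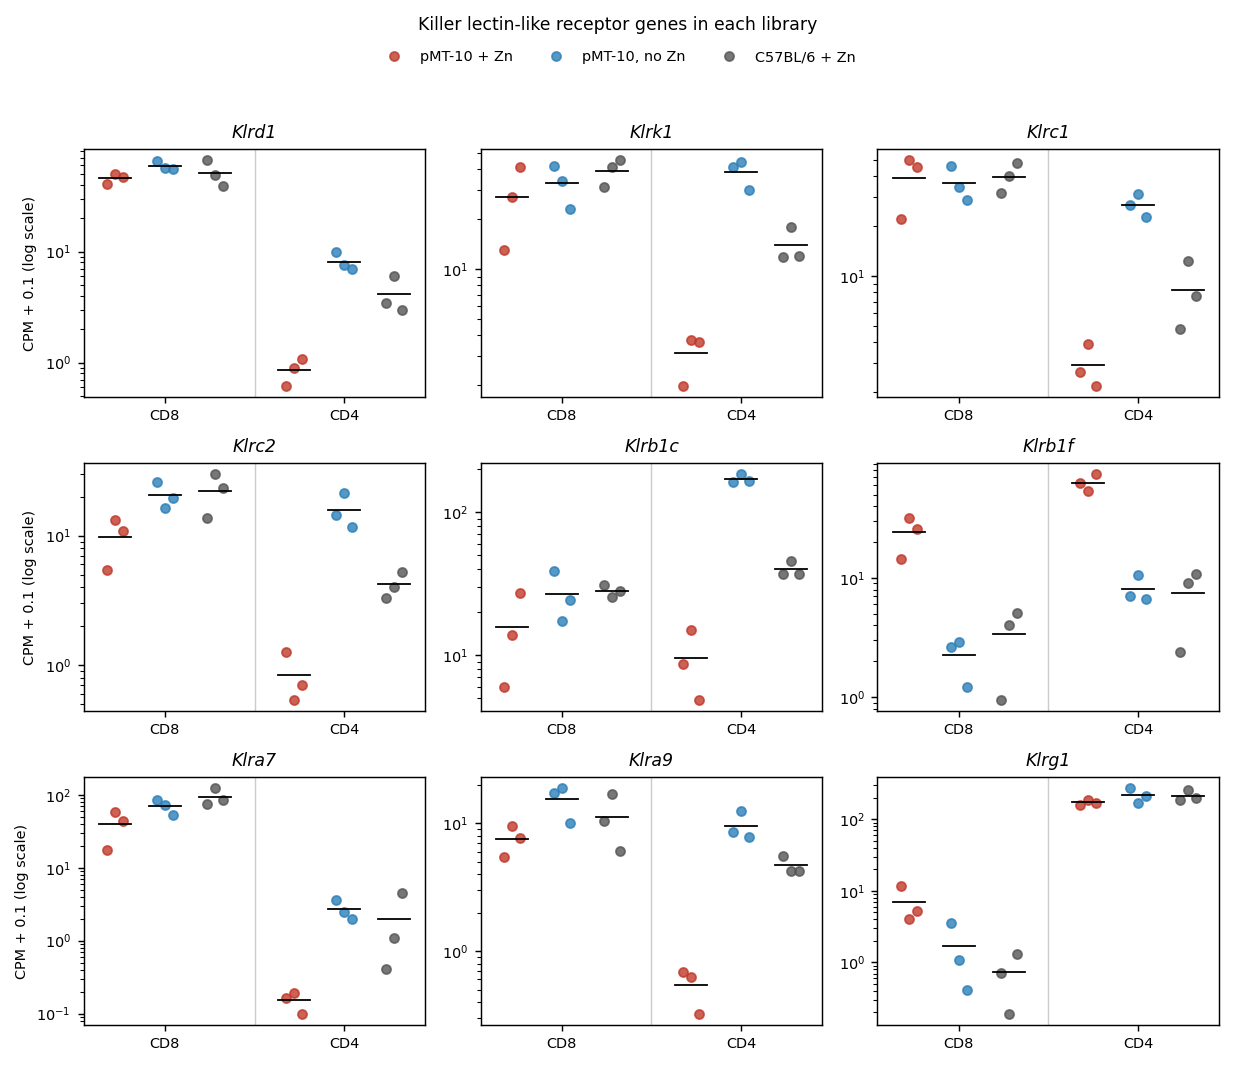
CPM plus 0.1, on a log axis, of the 9 receptor genes in each of the 18 libraries, with CD8 libraries left of CD4 libraries and a bar at each group mean (n = 3 libraries). In CD4 cells the zinc-treated pMT-10 libraries (red) lie below both control groups for 7 genes, above them for Klrb1f and among them or just below for Klrg1.

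Klrd1 stood at 40.6, 50.2 and 47.3 CPM in CD8 cells of zinc-treated pMT-10 mice, at 65.01, 56.6 and 55.8 CPM in those of pMT-10 mice on control water, and at 66.1, 49.3 and 38.6 CPM in those of zinc-treated C57BL/6 mice. In CD4 cells Klrd1 stood at 0.522, 0.797 and 0.974 CPM in zinc-treated pMT-10 mice, at 9.82, 7.47 and 6.81 CPM in pMT-10 mice on control water, and at 3.34, 5.94 and 2.91 CPM in zinc-treated C57BL/6 mice. The CD8 libraries of zinc-treated pMT-10 and C57BL/6 mice overlapped, while the former lay below all those of pMT-10 mice on control water. The 3 CD4 groups were fully separated, with the zinc-treated pMT-10 libraries lowest. CD94 RNA in CD4 cells fell by 2.42 against C57BL/6 on the log2 scale (SE 0.34, adjusted p = 3.17e-05) and fell by 3.39 against pMT-10 on control water (SE 0.324, adjusted p = 3.6e-07). CD8 cells showed differences of -0.16 from C57BL/6 (95% interval -0.63 to 0.32) and -0.36 from pMT-10 on control water (-0.84 to 0.12), neither called.

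Klrc1, the inhibitory partner of CD94, read 21.8, 49.3 and 45.2 CPM in CD8 cells of zinc-treated pMT-10 mice, 45.7, 34.3 and 28.7 CPM in those of pMT-10 mice on control water, and 31.3, 39.7 and 47.3 CPM in those of C57BL/6 mice. In CD4 cells Klrc1 read 2.55, 3.81 and 2.10 CPM in zinc-treated pMT-10 mice, 26.5, 30.9 and 22.5 CPM in pMT-10 mice on control water, and 4.71, 12.3 and 7.46 CPM in C57BL/6 mice. All 3 CD8 groups overlapped, and in CD4 cells none did. The CD4 level fell by 1.54 (log2) against C57BL/6 (SE 0.36, adjusted p = 0.00416) and fell by 3.25 against pMT-10 on control water (SE 0.359, adjusted p = 1.95e-06). The CD8 difference from C57BL/6 was -0.03 (95% interval -0.66 to 0.61).

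Klrc2, the activating partner, was the one NKG2 gene that was also called in CD8 cells. Its CD8 libraries read 5.38, 13.1 and 10.7 CPM in zinc-treated pMT-10 mice, 26.0, 16.4 and 19.4 CPM in pMT-10 mice on control water, and 13.6, 29.6 and 23.4 CPM in C57BL/6 mice. Its CD4 libraries read 1.17, 0.443 and 0.599 CPM in zinc-treated pMT-10 mice, 14.3, 21.2 and 11.6 CPM in pMT-10 mice on control water, and 3.19, 3.94 and 5.18 CPM in C57BL/6 mice. Zinc-treated pMT-10 libraries were lowest in both cell types, without overlap with either control group. In CD8 cells the level fell by 1.19 (log2) against C57BL/6 (SE 0.355, adjusted p = 0.0395), a call that ended without any of C57BL/6 CD8 replicate 2 (adjusted p = 0.155) or 3 (0.106) or zinc-treated pMT-10 CD8 replicate 1 (0.166) or 3 (0.0749). The call also ended in a fit of only the groups compared (adjusted p = 0.0774). The difference from pMT-10 on control water, -1.09, had an adjusted p of 0.0654. In CD4 cells Klrc2 fell by 2.42 against C57BL/6 (SE 0.446, adjusted p = 0.000519) and fell by 4.35 against pMT-10 on control water (SE 0.441, adjusted p = 7.76e-07).

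Klrk1 encodes NKG2D, and it too was called in CD4 cells alone. Its CD8 libraries held 12.97, 27.01 and 40.8 CPM in zinc-treated pMT-10 mice, 41.4, 33.5 and 22.9 CPM in pMT-10 mice on control water, and 31.1, 40.8 and 44.8 CPM in C57BL/6 mice. Its CD4 libraries held 1.89, 3.63 and 3.52 CPM in zinc-treated pMT-10 mice, 40.9, 44.0 and 29.5 CPM in pMT-10 mice on control water, and 11.7, 17.8 and 11.8 CPM in C57BL/6 mice. The CD8 groups overlapped, and the CD4 groups stood apart from each other. NKG2D RNA in CD4 cells fell by 2.20 (log2) against C57BL/6 (SE 0.368, adjusted p = 0.000211) and fell by 3.67 against pMT-10 on control water (SE 0.374, adjusted p = 9.46e-07). In CD8 cells the differences were -0.53 (95% interval -1.20 to 0.14) and -0.27 (-0.94 to 0.40), neither called.

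The pair of Klrb1 genes moved in opposite directions in CD4 cells. Klrb1c, the NK1.1 gene, stood at 8.55, 14.97 and 4.80 CPM in CD4 cells of zinc-treated pMT-10 mice, at 162.6, 184 and 165 CPM in those of pMT-10 mice on control water, and at 36.8, 45.8 and 37.2 CPM in those of C57BL/6 mice. Klrb1f stood at 62.1, 53.2 and 73.7 CPM in CD4 cells of zinc-treated pMT-10 mice, at 6.91, 10.45 and 6.55 CPM in those of pMT-10 mice on control water, and at 2.28, 8.95 and 10.8 CPM in those of C57BL/6 mice. The zinc-treated pMT-10 libraries were thus the lowest for Klrb1c and the highest for Klrb1f, with no overlap. Klrb1c fell by 2.09 (log2) against C57BL/6 (SE 0.425, adjusted p = 0.00186) and fell by 4.19 against pMT-10 on control water (SE 0.451, adjusted p = 4.12e-06). Klrb1f rose by 3.10 against C57BL/6 (SE 0.51, adjusted p = 0.000243) and rose by 2.98 against pMT-10 on control water (SE 0.503, adjusted p = 0.000312).

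In CD8 cells Klrb1c read 5.89, 13.8 and 27.0 CPM in zinc-treated pMT-10 mice, 38.7, 17.3 and 24.4 CPM in pMT-10 mice on control water, and 31.1, 25.3 and 28.0 CPM in C57BL/6 mice, with overlap and no call (log2 difference from C57BL/6 -0.84, 95% interval -1.71 to 0.02). Klrb1f read 14.3, 31.9 and 25.8 CPM in CD8 cells of zinc-treated pMT-10 mice, 2.56, 2.83 and 1.11 CPM in those of pMT-10 mice on control water, and 0.858, 3.93 and 5.02 CPM in those of C57BL/6 mice. Klrb1f was again highest in zinc-treated pMT-10 mice without overlap. It rose by 2.86 (log2) against C57BL/6 (SE 0.528, adjusted p = 0.00158) and rose by 3.51 against pMT-10 on control water (SE 0.551, adjusted p = 0.000322). It was the one member called in the same direction in all 4 of these comparisons, and its CD8 and CD4 changes against C57BL/6 differed by -0.25 (95% interval -1.73 to 1.24, adjusted p = 0.888).

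Klra7, the Ly49G gene, was nearly undetected in CD4 cells of zinc-treated pMT-10 mice. Its CD8 libraries held 17.4, 59.2 and 43.9 CPM in zinc-treated pMT-10 mice, 86.5, 72.5 and 53.8 CPM in pMT-10 mice on control water, and 74.1, 123 and 86.2 CPM in C57BL/6 mice. Its CD4 libraries held 1, 1 and 0 reads in zinc-treated pMT-10 mice (0.0653, 0.0886 and 0 CPM), against 3.55, 2.40 and 1.91 CPM in pMT-10 mice on control water and 0.304, 1.00 and 4.40 CPM in C57BL/6 mice. Pooled over libraries, the 2 reads gave a CD4 ratio of 0.0192 to pMT-10 on control water (130 reads, 95% interval 0.0023 to 0.0709) and 0.0266 to C57BL/6 (73 reads, 0.00317 to 0.0997), counting error only. The CD4 groups did not overlap in either comparison, and the level fell in both tests (adjusted p = 0.00329 against pMT-10 on control water and 0.0101 against C57BL/6). The call against C57BL/6 ended without C57BL/6 CD4 replicate 3, where the log2 difference was -3.48 (adjusted p = 0.0562) instead of -5.00. This is the library that held Xist, and without it 1 member was called higher and 6 lower in CD4 cells against C57BL/6. In CD8 cells the zinc-treated pMT-10 libraries lay below all 3 C57BL/6 libraries, without a call (log2 difference -1.24, 95% interval -2.22 to -0.25, adjusted p = 0.113).

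Klra9, the Ly49I gene, read 5.38, 9.51 and 7.61 CPM in CD8 cells of zinc-treated pMT-10 mice, 17.2, 18.7 and 10.1 CPM in those of pMT-10 mice on control water, and 10.4, 16.8 and 6.02 CPM in those of C57BL/6 mice. In CD4 cells Klra9 read 0.587, 0.532 and 0.225 CPM in zinc-treated pMT-10 mice, 8.46, 12.3 and 7.70 CPM in pMT-10 mice on control water, and 5.47, 4.17 and 4.16 CPM in C57BL/6 mice. The CD4 groups stood apart. In CD8 cells the zinc-treated pMT-10 libraries overlapped with C57BL/6 but lay below all those of pMT-10 mice on control water. Klra9 fell in CD4 cells by 3.33 (log2) against C57BL/6 (SE 0.473, adjusted p = 3.43e-05) and fell by 4.38 against pMT-10 on control water (SE 0.472, adjusted p = 1.41e-06). In CD8 cells the differences were -0.56 (95% interval -1.33 to 0.21) and -1.03 (-1.80 to -0.26, adjusted p = 0.099), neither called.

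Klrg1 had the reverse distribution between cell types. In CD8 cells Klrg1 stood at 11.7, 3.95 and 5.05 CPM in zinc-treated pMT-10 mice, at 3.47, 0.976 and 0.318 CPM in pMT-10 mice on control water, and at 0.601, 0.0935 and 1.20 CPM in C57BL/6 mice. In CD4 cells it stood at 157, 187 and 171 CPM in zinc-treated pMT-10 mice, at 269.9, 166 and 209 CPM in pMT-10 mice on control water, and at 185, 258 and 198 CPM in C57BL/6 mice. The CD8 libraries of zinc-treated pMT-10 mice lay above those of both controls, and the CD4 groups overlapped. Klrg1 rose in CD8 cells by 3.31 (log2) against C57BL/6 (SE 0.673, adjusted p = 0.0048) and rose by 2.12 against pMT-10 on control water (SE 0.572, adjusted p = 0.0308). In CD4 cells the differences were -0.31 (95% interval -1.17 to 0.54) and -0.32 (-1.18 to 0.53), neither called. The size of the CD8 change rested on low reads. Against C57BL/6 it was 4.24 without C57BL/6 CD8 replicate 3 and 2.71 without zinc-treated pMT-10 CD8 replicate 1. The call against pMT-10 on control water ended without zinc-treated pMT-10 CD8 replicate 1 (log2 difference 1.52, adjusted p = 0.161) or without pMT-10 CD8 replicate 2 (1.93, adjusted p = 0.106) or 3 (1.54, adjusted p = 0.113) of the mice on control water, and the difference was 3.59 without replicate 1 of that group. The same zinc-treated pMT-10 CD8 replicate 1 was the lowest of its group for the other 8 members.

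**Figure D2:**
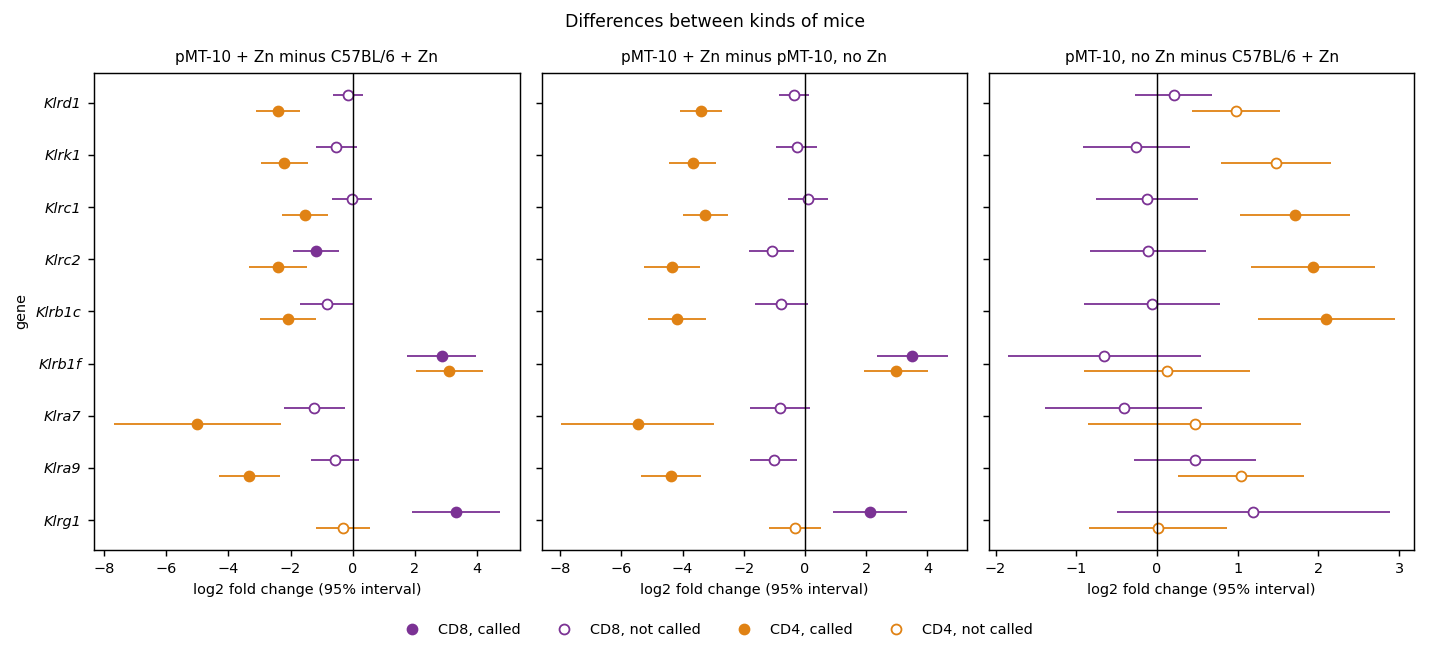
Log2 fold changes (first-named minus second-named mice) of the 9 receptor genes in CD8 (purple) and CD4 (orange) cells with 95% intervals, n = 3 libraries per group, filled where the adjusted p was under 0.05. Both comparisons of zinc-treated pMT-10 mice place 7 CD4 points well left of 0 and Klrb1f right of 0 in both cell types, and in the comparison of the controls, drawn on a finer scale, the called points are 3 CD4 points right of 0.

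The control groups differed from each other too, in CD4 cells. Between pMT-10 mice on control water and zinc-treated C57BL/6 mice strain, zinc, chip and sex all differ and cannot be told apart. In CD8 cells 0 of the 9 members were called by edgeR or DESeq2, 0 had an unadjusted p under 0.05, and 0.0972% of all tested genes were called. In CD4 cells 3 members were called, all higher in pMT-10 mice on control water, where 0.0795% of all genes were called higher and 16 genes were called in all. Klrc1 was higher by 1.71 (log2, SE 0.325, adjusted p = 0.0292), Klrc2 by 1.93 (SE 0.371, adjusted p = 0.0292) and Klrb1c by 2.10 (SE 0.405, adjusted p = 0.0481). Of the other 13 called genes, Xist and the Y-linked Ddx3y, Eif2s3y, Uty and Kdm5d mark the difference in sex. The 3 CD4 libraries of pMT-10 mice on control water lay above all 3 C57BL/6 libraries for 6 members (Klrd1, Klrk1 and Klra9 besides the 3 called), where 6.14% of all tested genes did so. Among those not called, the log2 difference was 1.47 for Klrk1 (adjusted p = 0.129), 0.98 for Klrd1 (0.323), 1.05 for Klra9 (0.904) and 0.01 for Klrg1. Klrk1 was called higher by DESeq2 (adjusted p = 0.012) and by edgeR in a fit of only the groups compared (0.0108). Without a low-count filter Klrk1 and Klrd1 were both called higher (4.96e-07 and 0.0239). The 3 calls of the main fit rest on few libraries. The Klrb1c call ended when any 1 of the 6 CD4 libraries was left out (adjusted p = 0.115 to 0.29). That of Klrc2 ended without 5 of them (C57BL/6 replicate 1, 2 or 3, or pMT-10 replicate 1 or 2, adjusted p = 0.0746 to 0.265), and that of Klrc1 without 4 (C57BL/6 replicate 1 or 3, or pMT-10 replicate 1 or 2, adjusted p = 0.111 to 0.255), while the log2 differences of the 3 genes stayed between 1.43 and 2.21.

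The next question was how CD8 and CD4 cells differ in each kind of mouse. In zinc-treated pMT-10 mice 6 members were called higher and 2 lower in CD8 cells, where 13.4% of all tested genes were called higher and 14.7% lower, with a median log2 difference (CD8 minus CD4) of 3.66 over the members beside -0.01 over all genes. In pMT-10 mice on control water 2 were called higher and 3 lower (8.94% of genes higher and 12.8% lower, members' median 0.39 beside -0.01). In zinc-treated C57BL/6 mice 6 were called higher and 1 lower (9.28% of genes higher and 12.9% lower, members' median 1.50 beside -0.02). Klrd1 and Klra7 were called higher in CD8 cells in all 3 kinds of mice. For Klrd1 the log2 difference was 5.91 in zinc-treated pMT-10 mice, 2.88 in pMT-10 mice on control water and 3.65 in C57BL/6 mice. For Klra7 it was 9.41 in zinc-treated pMT-10 mice, where 2 CD4 reads make the size uncertain, 4.76 in pMT-10 mice on control water and 5.64 in C57BL/6 mice (7.16 without C57BL/6 CD4 replicate 3). Klrg1 was called lower in CD8 cells in all 3, by -4.64 in zinc-treated pMT-10 mice, -7.08 in pMT-10 mice on control water and -8.27 in C57BL/6 mice. Leaving out 1 CD8 library moved each of these, to -5.24 without zinc-treated pMT-10 replicate 1, -8.55 without replicate 1 of pMT-10 mice on control water and -9.19 without C57BL/6 replicate 3.

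Klrk1, Klrc1, Klrc2 and Klra9 were called higher in CD8 cells in zinc-treated pMT-10 mice (log2 3.17 to 4.03) and in C57BL/6 mice (1.26 to 2.43), while in pMT-10 mice on control water their differences were -0.23, 0.44, 0.39 and 0.69, none called (adjusted p = 0.204 to 0.673). The Klra9 call in C57BL/6 mice ended without CD4 replicate 2 (adjusted p = 0.0665) or 3 (0.0638) or CD8 replicate 2 (0.162). Klrb1c was called lower in CD8 cells of pMT-10 mice on control water (-2.67, SE 0.414, adjusted p = 0.000111), with 0.74 in zinc-treated pMT-10 mice (adjusted p = 0.208) and -0.50 in C57BL/6 mice (adjusted p = 0.416). Klrb1f was called lower in CD8 cells of zinc-treated pMT-10 mice (-1.39, adjusted p = 0.034) and of pMT-10 mice on control water (-1.92, adjusted p = 0.0152), with -1.15 in C57BL/6 mice (adjusted p = 0.133). The first of these ended without 4 of its 6 libraries (CD8 replicate 1 or 3, or CD4 replicate 1 or 3, adjusted p = 0.0684 to 0.133) and the second without CD8 replicate 3 (0.0839) or CD4 replicate 2 (0.0654).

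**Figure D3:**
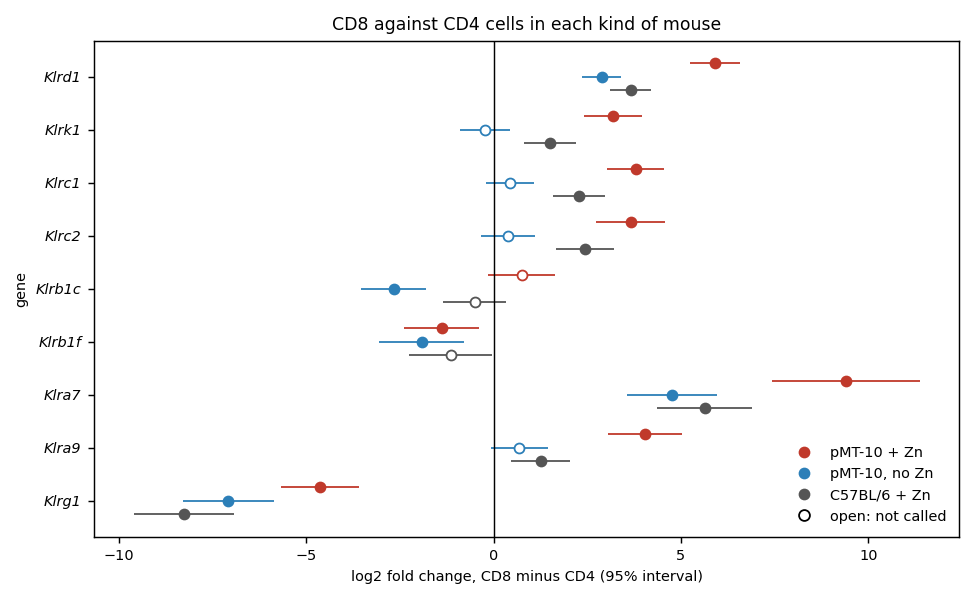
Log2 fold change of CD8 minus CD4 cells for the 9 receptor genes in zinc-treated pMT-10 mice (red), pMT-10 mice on control water (blue) and zinc-treated C57BL/6 mice (grey), with 95% intervals (n = 3 libraries per group), open where not called. Klrd1 and Klra7 lie right of 0 and Klrg1 far left of 0 in all 3 kinds of mice, and Klrb1c is called in pMT-10 mice on control water.

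Whether CD8 and CD4 cells changed unequally between zinc-treated pMT-10 and C57BL/6 mice was tested by an interaction (the log2 change in CD8 minus that in CD4 cells). It called 4 members, all with a higher change in CD8 cells, where 3.41% of all genes were called in that direction, and the members' median was 1.67 beside 0.05 over all genes. Klrd1 differed by 2.26 (SE 0.414, adjusted p = 0.00357), Klra9 by 2.77 (SE 0.601, adjusted p = 0.00999), Klrg1 by 3.63 (SE 0.796, adjusted p = 0.0145) and Klrk1 by 1.67 (SE 0.485, adjusted p = 0.0467). The Klrk1 call ended when any of 9 of the 12 libraries was left out, one at a time (all but zinc-treated pMT-10 CD8 replicate 1, zinc-treated pMT-10 CD4 replicate 2 and C57BL/6 CD4 replicate 3, adjusted p = 0.0673 to 0.158). The call also ended in a fit of only the groups compared (adjusted p = 0.074). For Klrg1 the difference was 4.55 without C57BL/6 CD8 replicate 3 and 3.02 without zinc-treated pMT-10 CD8 replicate 1. Klrc1 (1.52, adjusted p = 0.063), Klrc2 (1.22, 0.217), Klrb1c (1.25, 0.228) and Klra7 (3.77, 0.156) did not pass in the main fit. Of the 9 members, 8 had an unadjusted p under 0.05, all but Klrb1f. Klrc1 was called by DESeq2 (adjusted p = 0.0285) and by edgeR under library size only (0.0368). Without a low-count filter edgeR called Klrc1 (0.00137), Klrb1c (0.00112) and Klra7 (3.39e-06).

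Other cells that could carry these receptors were read in the same libraries. Of 7 NK cell markers, the defining Ncr1 had 0 reads in all 6 zinc-treated pMT-10 libraries and at most 11 reads in any other library, S1pr5 had 0 reads in the same 6, and Cma1 had reads in 1 of the 18. The summed level of the 7 markers ran from 19.8 to 31.2 CPM in CD8 libraries of zinc-treated pMT-10 mice, 21.2 to 44.8 CPM in those of pMT-10 mice on control water, and 24.7 to 56.9 CPM in those of C57BL/6 mice. In CD4 libraries it ran from 42.6 to 60.8 CPM in zinc-treated pMT-10 mice, 24.2 to 31.7 CPM in pMT-10 mice on control water, and 14.9 to 30.7 CPM in C57BL/6 mice. Of the 4 tested NK markers, against C57BL/6, 0 rose and 1 fell in CD8 cells, where 3.13% of all tested genes fell. In CD4 cells 1 rose and 0 fell (2 of the 4 had an unadjusted p under 0.05), where 9.29% of all tested genes rose. By sign, 2 of the 4 were higher and 2 lower there. Fcer1g, a signalling chain of Fc receptors, fell in CD8 cells to 7.91 ± 3.25 CPM in zinc-treated pMT-10 mice, against 25.7 ± 14.2 CPM in C57BL/6 mice (SD, n = 3 each, log2 -1.70, adjusted p = 0.033), as Klrc2 did. In CD4 cells Fcer1g averaged 4.03 ± 2.57 CPM in zinc-treated pMT-10 mice and 4.30 ± 2.60 CPM in C57BL/6 mice, not called. The summed CD4 level was highest in zinc-treated pMT-10 mice, and most of it was Itga2, an integrin subunit that activated T cells also make, with 39.2 ± 5.53 CPM in zinc-treated pMT-10 mice and 14.5 ± 6.93 CPM in C57BL/6 mice (log2 1.43, adjusted p = 0.0183). Against pMT-10 on control water 0 of the 4 were called in CD8 cells by edgeR (2 with an unadjusted p under 0.05), and Itga2 alone rose in CD4 cells (adjusted p = 0.0184). The part of NK cells in the receptor results was not tested.

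Zbtb16 and Il17rb, markers of innate-like T cells that carry several of these receptors, were also lower in CD4 cells of zinc-treated pMT-10 mice. Zbtb16, which encodes the PLZF factor of NKT cells, stood at 1.76, 0.709 and 0 CPM in CD4 cells of zinc-treated pMT-10 mice, at 19.3, 13.8 and 13.4 CPM in those of pMT-10 mice on control water, and at 2.36, 3.01 and 9.58 CPM in those of C57BL/6 mice. It fell by 4.19 (log2) against pMT-10 on control water (SE 1.04, adjusted p = 0.00681), while its difference from C57BL/6 was not called. Il17rb, the interleukin-25 receptor gene found on some NKT cells, fell by 2.93 against pMT-10 on control water (SE 0.516, adjusted p = 0.000434) and by 2.07 against C57BL/6 (SE 0.505, adjusted p = 0.00634). Il17rb stood at 1.04, 3.54 and 1.87 CPM in CD4 cells of zinc-treated pMT-10 mice, at 18.47, 13.4 and 16.99 CPM in those of pMT-10 mice on control water, and at 6.08, 6.79 and 14.14 CPM in those of C57BL/6 mice. The highest CD8 levels were 0.654 CPM of Zbtb16 and 0.0732 CPM of Il17rb. By mean CD4 level both markers had the order of mice of 8 of the 9 receptor genes (all but Klrb1f, and including Klrg1, which was not called). The share of all tested genes with this order was not counted, so the match cannot be weighed. Between the controls this order rested on log2 differences of 0.01 for Klrg1 and 0.47 for Klra7. Neither was called, and both changed sign in some other fits. The part of such cells in the receptor results was not tested. Of 8 genes that mark T cells in general, 4 were called higher and 0 lower in CD4 cells against C57BL/6, among them Cd3e (0.68, SE 0.129, adjusted p = 0.00066). Of all tested genes 9.29% were called higher and 9.4% lower there.

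Beyond the 9 members, the panel held 19 other genes of the Klr families, of which 10 were tested. Against C57BL/6, 0 rose and 1 fell in CD8 cells (3 had an unadjusted p under 0.05), where 3.13% of all tested genes fell. In CD4 cells 0 rose and 2 fell, where 9.4% of all tested genes fell. The 2 were Klra1 (Ly49A), which averaged 0.773 ± 0.661 CPM in zinc-treated pMT-10 CD4 cells and 8.44 ± 3.21 CPM in C57BL/6 CD4 cells (SD, n = 3 each, log2 -3.49, adjusted p = 0.000442), and Klre1, a receptor chain of NK cells, with 1.20 ± 0.388 and 5.40 ± 2.11 CPM in the same groups (log2 -2.16, adjusted p = 0.000551). Klra1 was also the gene that fell in CD8 cells (log2 -1.82, adjusted p = 0.0283). Against pMT-10 on control water 0 rose and 7 fell in CD4 cells, among them Klre1 (-3.59, adjusted p = 1.43e-06) and Klra1 (-3.79, adjusted p = 0.000186), and 0 of 10 were called in CD8 cells (3 with an unadjusted p under 0.05). Of all tested genes 9.4% fell in that CD4 comparison and 2.64% in that CD8 comparison. The median log2 difference of the 10 in CD4 cells was -1.96 against C57BL/6 and -3.10 against pMT-10 on control water, or -1.72 and -2.92 with the 2 genes that had no read in zinc-treated pMT-10 CD4 cells (Klra13-ps and Klri1) set at their bounds of 3 counts over the group. In the comparison of CD8 with CD4 cells, 9 of the 10 were called higher in CD8 cells of zinc-treated pMT-10 mice, 3 in those of pMT-10 mice on control water and 6 in those of C57BL/6 mice, and 0 were called lower. The shares of all tested genes called higher were 13.4%, 8.94% and 9.28%, in the same order of mice.

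**Figure D4:**
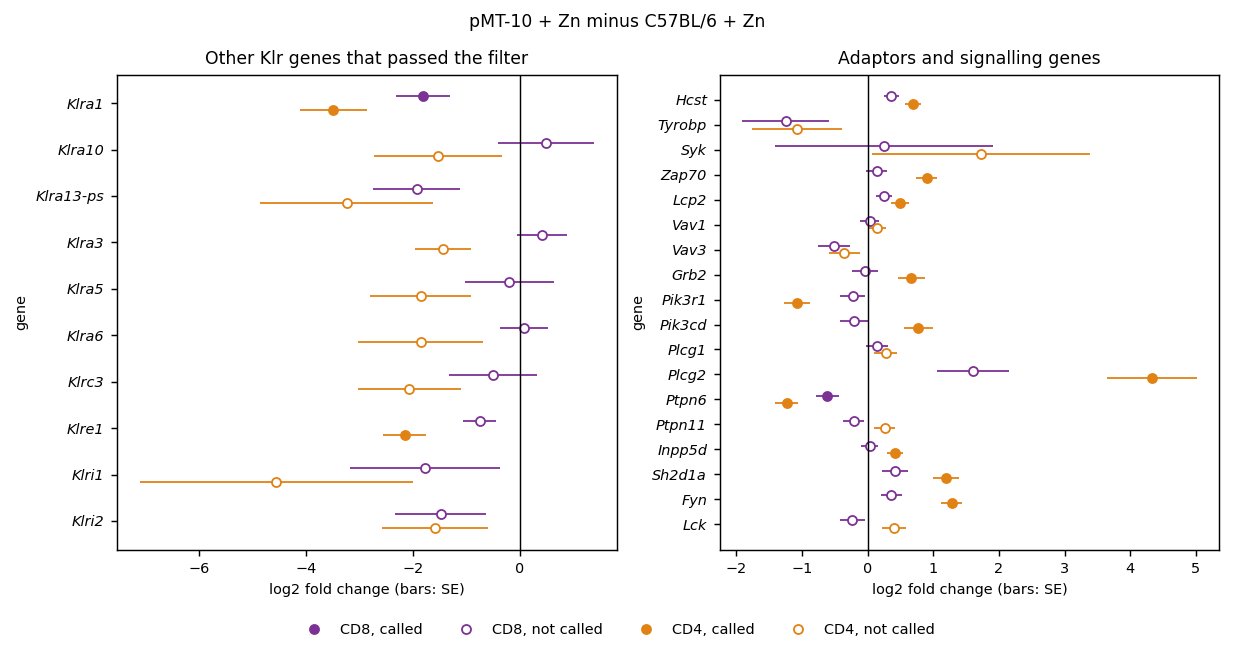
Log2 fold change of zinc-treated pMT-10 minus zinc-treated C57BL/6 mice for the 10 other Klr genes tested (left) and 18 adaptor and signalling genes (right), in CD8 (purple) and CD4 (orange) cells, with SE bars (n = 3 libraries per group), filled where called. The called Klr points all lie left of 0, whereas among the adaptor and signalling genes 9 CD4 points are called right of 0 and 2 left of it.

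Of the listed adaptor and signalling genes, those called in CD4 cells were mostly higher. NKG2D pairs with the adaptor DAP10 (Hcst), and the activating CD94 and Ly49 receptors with DAP12 (Tyrobp). Of 18 tested adaptor and signalling genes, against C57BL/6, 0 rose and 1 fell in CD8 cells, where 5.68% of all tested genes rose and 3.13% fell. In CD4 cells 9 rose and 2 fell, where 9.29% of all tested genes rose and 9.4% fell. The largest called CD4 differences were those of Plcg2, a phospholipase (log2 4.33, SE 0.684, adjusted p = 0.000115), Fyn, a Src-family kinase (1.28, SE 0.166, adjusted p = 1.24e-05), Ptpn6, the SHP-1 phosphatase recruited by inhibitory receptors (-1.23, SE 0.176, adjusted p = 3.75e-05), and Sh2d1a, the SAP adaptor (1.19, SE 0.202, adjusted p = 0.000226). Plcg2 averaged 8.98 CPM in CD4 cells of zinc-treated pMT-10 mice and 0.441 CPM in those of C57BL/6 mice. The latter rests on 17 reads over 3 libraries, 1 of them at 0, which leaves the size of the difference uncertain. Ptpn6 was also the gene that fell in CD8 cells (-0.61, adjusted p = 0.0298). Hcst averaged 445 ± 51.4 CPM in CD4 cells of zinc-treated pMT-10 mice and 275 ± 26.0 CPM in those of C57BL/6 mice (log2 0.69, adjusted p = 0.00029), opposite in sign to Klrk1. Tyrobp averaged 0.996 ± 0.567 CPM in CD4 cells of zinc-treated pMT-10 mice and 2.10 ± 0.829 CPM in those of C57BL/6 mice, not called. Against pMT-10 on control water 9 rose and 3 fell in CD4 cells, where 9.38% of all tested genes rose and 9.4% fell.

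Of 21 listed ligand genes 16 were on the panel and 7 were tested. Against C57BL/6, 0 of the 7 were called in CD8 cells and 0 in CD4 cells by edgeR, with 1 and 2 at an unadjusted p under 0.05. Clec2i, the NKR-P1F ligand gene, averaged 91.7 ± 6.39 CPM in CD4 cells of zinc-treated pMT-10 mice and 95.8 ± 0.963 CPM in those of C57BL/6 mice. Against pMT-10 on control water Ulbp1, which encodes the NKG2D ligand MULT1, fell in CD4 cells (log2 -1.04, SE 0.353, adjusted p = 0.0433).

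Of 14 tested transcription factors of NK and effector programmes, against C57BL/6, 4 rose and 2 fell in CD8 cells, where 5.68% of all tested genes rose and 3.13% fell. In CD4 cells 7 rose and 5 fell, where 9.29% of all tested genes rose and 9.4% fell. In CD4 cells the largest were Eomes, a T-box factor of NK and CD8 memory cells, with 335 ± 46.9 CPM in zinc-treated pMT-10 mice and 20.2 ± 8.33 CPM in C57BL/6 mice (log2 4.05, adjusted p = 1.42e-08), Id3, an inhibitor of E proteins (-2.74, adjusted p = 1.47e-07), Id2, its counterpart needed by NK cells (2.19, adjusted p = 7.49e-08), and Bach2, a repressor of effector genes (-1.84, adjusted p = 0.000112). In CD8 cells the largest was Prdm1, which encodes Blimp-1 (4.13, adjusted p = 8.56e-05).

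The likeness of other genes to each member was taken as the smaller of Pearson's r of log2 CPM over the 9 CD8 and over the 9 CD4 libraries, which share their 3 groups, so that any gene differing between the groups can score high. Klrb1f was most like Plekhf1 (0.946), Chn2 (0.931) and Ccl4, a chemokine gene (0.93). Klrc2 was most like Bcl2l1 (0.94), the Bcl-xL gene, and then Klra7 (0.891), and Klra7 was itself most like Bcl2l1 (0.895) and Klrc2. Klrk1 was most like Spin2c (0.862) and Klrb1c (0.844), and Klrc1 most like Klrk1 (0.824). The leading genes for the others were Trio for Klrd1 (0.907), Xdh for Klrb1c (0.871), Tgif1 for Klra9 (0.916) and Mtm1 for Klrg1 (0.781). Among the members themselves, Klrd1, Klrk1, Klrc1, Klrc2, Klrb1c and Klra9 had r of 0.895 to 0.986 with each other over the CD4 libraries. Over the CD8 libraries the same pairs ran from 0.0177 (Klrd1 with Klrc1) to 0.844 (Klrk1 with Klrb1c). Klrb1f had a negative r with each of the other 8 over the CD4 libraries (-0.881 to -0.486). Over the CD8 libraries its r ran from -0.612 (Klrd1) to 0.697 (Klrg1).

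The members' levels can be ordered only within a gene, since the panel has 1 amplicon per gene and no length scale. For Klrd1 and Klra7 all 3 CD8 groups stood above all CD4 groups, and for Klrg1 all 3 CD4 groups above all CD8 groups, with no overlap between the cell types. For Klrk1, Klrc1, Klrc2 and Klra9 the CD4 group of pMT-10 mice on control water overlapped at least 1 of the CD8 groups, and the CD4 group of zinc-treated pMT-10 mice was the lowest of the 6, without overlap with the next. For Klrb1c the order ran from CD4 cells of pMT-10 mice on control water (171 ± 11.8 CPM) through CD4 cells of C57BL/6 mice (39.9 ± 5.08 CPM) to 4 groups between 28.1 and 9.44 CPM on average, whose neighbours overlapped. For Klrb1f the 2 zinc-treated pMT-10 groups led, CD4 (63.0 ± 10.3 CPM) above CD8 (24.0 ± 8.93 CPM), and the neighbours among the 4 control groups overlapped (SD, n = 3 each).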

How the data were processed

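RNA was measured in 18 libraries of sorted bone marrow CD8 and CD4 T cells with a targeted amplicon panel (Ion AmpliSeq Transcriptome Mouse Gene Expression Kit), per the labels' protocols. Deposited were the authors' raw counts, whole numbers of reads for 1 amplicon of each of 23930 genes, unscaled. The build is mm10, per the submitters' processing notes, while an aligner or counter is not given in the sources used. Molecular identifiers are not mentioned. Columns were mapped to samples by chip and barcode.

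Genes were filtered with filterByExpr (11316 kept), scaled with TMM and fitted in edgeR 4.0.16 (R 4.3.3) by the robust quasi-likelihood method with 6 group means over all 18 libraries, a fit also tested on simulated data. Genes with an adjusted p under 0.05 (Benjamini-Hochberg, over every tested gene) were called. Adjusted p, SE and intervals come from this fit, CPM uses TMM-scaled library sizes, and log2 differences are the first-named minus the second-named group. "Rose" and "fell" are used of called genes. Exact permutation tests were not relied on, since 3 libraries against 3 cannot go below p = 0.1. The p-values measure the spread between these libraries, of 3 mice a group. The alternatives were RLE size factors, library size only, no low-count filter, DESeq2 1.42.0, a fit of only the groups compared, and leaving out each library. Positions come from GENCODE M21, and coding sequences were aligned with Biopython 1.88.

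The members, gene lists and tests were chosen with earlier results of these data known. All 9 members are named in every group. One gene of the innate-like T cell list is not reported here, and no counts are given for that list. For the other lists described, the text gives the counts and at most 4 called genes with the largest absolute change per comparison, besides defining markers. Hcst, Tyrobp, Clec2i, Klri1, S1pr5 and Fcgr3 were named in addition, after their values were seen.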

Additional observations from a re-analysis of the deposited data

Results flagged for a closer look

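For 4 members the change between zinc-treated pMT-10 and C57BL/6 mice differed between CD8 and CD4 cells by the interaction test of edgeR. The log2 change in CD8 cells exceeded that in CD4 cells by 2.26 for Klrd1 (adjusted p = 0.00357), 1.67 for Klrk1 (adjusted p = 0.0467), 2.77 for Klra9 (adjusted p = 0.00999) and 3.63 for Klrg1 (adjusted p = 0.0145). The first 3 were lower in CD4 cells of zinc-treated pMT-10 mice without a call in CD8 cells, and Klrg1 was higher in CD8 cells without a call in CD4 cells. Groups of 3 libraries were not tested for outlying samples.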

How the results depend on the processing

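No paired analysis was possible because the labels give no replicate number (those used here follow accession order and only name a library), and which CD8 and CD4 libraries come from the same mouse is not labelled. In CD4 cells, 8 of 9 members were called against C57BL/6 and 8 against pMT-10 on control water under RLE size factors, library size only, no low-count filter and DESeq2. Without a low-count filter, 5 members instead of 3 were called in CD8 cells against C57BL/6, 5 instead of 2 in CD8 cells against pMT-10 on control water, 5 instead of 3 in CD4 cells of the controls, and 7 instead of 4 in the interaction. A fit of only the groups compared called 2 instead of 3 in CD8 cells against C57BL/6 (without Klrc2, adjusted p = 0.0774). Against pMT-10 on control water it called 1 instead of 2 in CD8 cells (without Klrg1, adjusted p = 0.12). The same fit called 3 instead of 4 in the interaction (without Klrk1, adjusted p = 0.074) and 4 instead of 3 in CD4 cells of the controls. In CD4 cells against C57BL/6 it called 7 instead of 8, where the low-count filter removed Klra7. The cause was not tested. Leaving out 1 library at a time, 2 to 3 members were called in CD8 and 7 to 8 in CD4 cells against C57BL/6, 1 to 3 in CD8 and 8 in CD4 cells against pMT-10 on control water, 0 to 2 in CD4 cells of the controls, and 3 to 5 in the interaction.

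Signs turned for differences that were not called. Between the controls in CD4 cells Klrg1 was at -0.001449 under RLE and -0.001241 under DESeq2, and in CD8 cells against C57BL/6 Klrc1 was at 0.02558 under library size only. Without 1 library each, the ranges that crossed 0 were, in CD8 cells, Klrc1 -0.2197 to 0.2617 and Klrd1 -0.327 to 0.06616 against C57BL/6, and Klrc1 -0.09803 to 0.3832 and Klrk1 -0.7068 to 0.06449 against pMT-10 on control water. Between the controls they were Klrc1 -0.3267 to 0.02941, Klrb1c -0.4247 to 0.1637, Klrg1 -0.2745 to 2.117 and Klrc2 -0.3594 to 0.1487 in CD8 cells, and Klrb1f -0.3008 to 0.5053, Klrg1 -0.1821 to 0.1681 and Klra7 -0.0431 to 1.984 in CD4 cells. In the interaction Klrb1f ranged from -0.6923 to 0.2334.

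Over all genes, the control comparison called 11 genes in CD8 and 16 in CD4 cells, against 107 and 83 without a low-count filter, 42 and 33 by DESeq2, and 8 to 13 and 7 to 12 without 1 library. The interaction called 621, against 1055 without the filter, 1030 by DESeq2, 410 in the fit of only its groups and 255 to 837 without 1 library. Zinc-treated pMT-10 against C57BL/6 in CD8 cells called 997, against 588 in the fit of only those groups and 587 to 920 without 1 library. In the CD4 cells 2115 were called (1377 to 2160 without 1 library), and against pMT-10 on control water 876 in CD8 (565 to 755) and 2125 in CD4 cells (1373 to 2103). Scaling by library size only moved the median of all genes in CD4 cells to -0.155 against C57BL/6 and -0.196 against pMT-10 on control water, and the share of calls that were higher to 36.5% (49.7% with TMM) and 31.3% (49.9%). In CD8 cells against C57BL/6 this share was 74.9% (64.5%), in the interaction 84.4% (62.2%), and for CD8 against CD4 cells 57.7% (47.6%) in zinc-treated pMT-10 mice and 31% (41.2%) in pMT-10 mice on control water. Depth limits the lowest members, Klra7 in CD4 and Klrg1 in CD8 cells, where single libraries held as few as 0 and 1 reads.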
